A study of Mus musculus with 8 samples.

Results

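The subject is the IgG1-switched cells among germinal-centre B cells of mouse spleen, 1778 of the 40603 cells with a paired receptor. A cell was counted when its barcode held exactly 1 heavy and exactly 1 light chain contig and the heavy contig carried IGHG1, the constant gene of IgG1. The 8 libraries were single-cell receptor libraries of cells taken on day 10 after immunization, enriched with peanut agglutinin beads and sorted. Of these, 4 were labelled DTX1_KO (genotype Dtx1-/-) and 4 were labelled WT (genotype Dtx1+/+). The sources used here do not give the immunogen, the sort gates, the age or number of the mice, or whether Dtx1 was deleted only in B cells. The DTX1_KO libraries held 310, 286, 305 and 250 IgG1 cells (1151 in all), and the WT libraries held 157, 163, 154 and 153 (627 in all). IgG1 cells were 5.25% ± 0.318 of paired cells in DTX1_KO libraries and 3.35% ± 0.107 in WT libraries (SD, n = 4 each).

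IgG1 is made when a B cell cuts its heavy chain locus between switch regions and joins its rearranged V, D and J segments to the IGHG1 constant gene in place of IGHM. The antigen-binding part is kept, so an IgG1 cell and an IgM cell of the same clone carry the same rearrangement. In germinal centres the enzyme AID also mutates the V regions. Cells whose mutations improve binding are selected, and mutations gather in the complementarity-determining regions (CDRs), the loops that touch antigen. IGHG1 lies on chromosome 12 at 113326541 to 113330523 and IGHM at 113418826 to 113422730 (mm10, RefSeq). The IGHV genes lie on the same chromosome, the IGKV genes of the kappa light chain on chromosome 6, and the IGLV genes of the lambda light chain on chromosome 16. Dtx1 encodes Deltex-1, an E3 ligase of the Notch pathway. Its transcript is not part of receptor contigs, so the knockout was not checked.

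A library held 11666 to 14732 contigs, 754954 to 1155339 unique molecular identifiers (UMIs, which count captured transcripts) and 32395632 to 47934592 reads. The number of IgG1 cells limits the precision: 3 cells are 0.968 to 1.96% of the IgG1 cells of a library, for counting error only. Any pair of libraries shared 51 to 83 barcodes, whichever the genotypes. Among IgG1 cells 1 shared barcode was found within a genotype, with different receptors in its 2 libraries, and 0 between genotypes. Exact IgG1 clonotypes common to a pair of libraries numbered 4 to 28 within a genotype (median 12 of 12 pairs) and 0 to 1 between genotypes (median 0 of 16 pairs). The 4 libraries of a genotype thus hold cells of the same clones, as loadings of 1 pool of cells do. The SDs and p-values therefore describe variation among loadings, and a comparison of DTX1_KO with WT compares 2 pools of cells, not genotypes across animals. In WT replicate 2, 4 IgG1 cells carried IGKV6-13, a chain over-represented in its IGHM cells too (92 cells, against 6 to 30 in each other library). The tests of single values, and those of V genes that still passed the filter, were also run without that library.

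The cells were checked against markers. Only 1 of the 1778 IgG1 cells used IGHV11-2 or IGHV12-3, the genes typical of B-1 cells, and it lay in a DTX1_KO library. No WT cell did (0 of 627, which allows a share of up to 0.478%). Among IGHM cells these genes made up 1.52% ± 0.226 in DTX1_KO and 0.537% ± 0.0925 in WT libraries. Heavy chain contigs above 10 times the UMI median of the library, the level taken as plasmablast-like, were carried by 0 to 3 IgG1 cells of any library. Contigs carry no germinal-centre surface or transcription markers, so that part of the label was not checked.

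The first comparison asked how far IgG1 cells had mutated. The mutation frequency of IgG1 cells was higher than that of IGHM cells of the same libraries in both pools, and that of DTX1_KO IgG1 cells was lower than that of WT IgG1 cells. Mutation frequency is the percent of V gene nucleotides from framework 1 to framework 3 that differ from the germline, taken as the most common sequence of the gene over its clones. In IGHV genes the frequency was 0.905, 0.856, 0.826 and 0.837% in the DTX1_KO libraries, against 1.32, 1.25, 1.31 and 1.37% in the WT libraries. The groups do not overlap. The means were 0.856% ± 0.0352 in DTX1_KO and 1.32% ± 0.0488 in WT (difference -0.459 percentage points, exact two-sided permutation p = 0.0286, lower in 4 of 4 libraries). No smaller p is possible with 4 libraries against 4. In this family 26 values were tested by exact permutation, 10 had p = 0.0286, and each of those 10 has an adjusted p of 0.0743 (Benjamini-Hochberg), so none passes the correction.

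**Figure D1:**
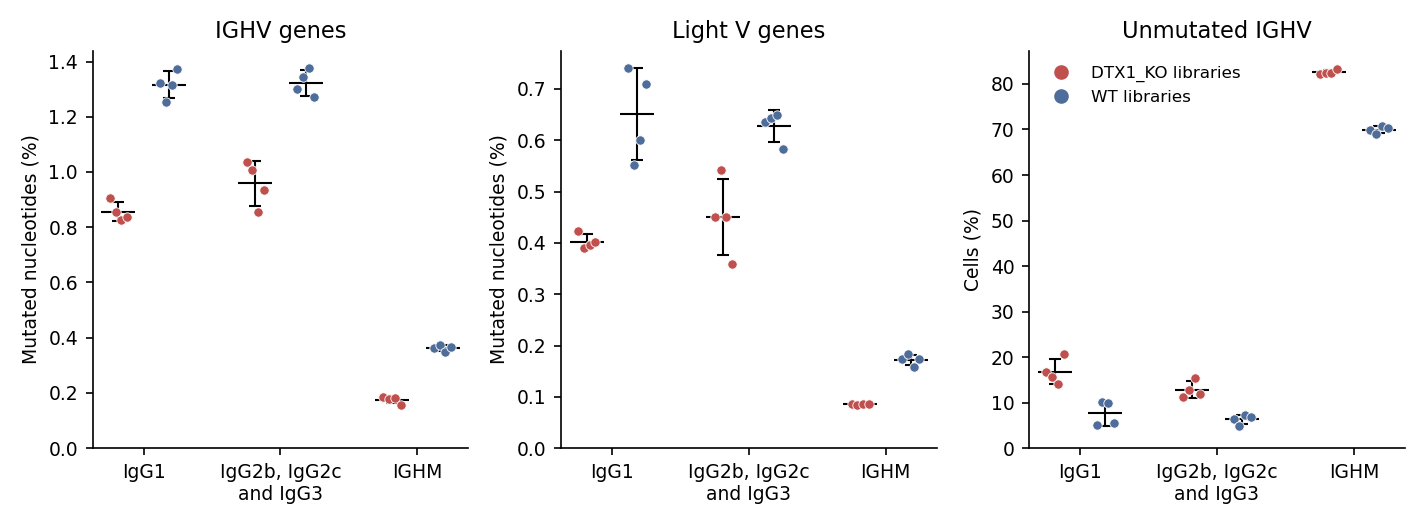
Mutation of IgG1 cells, of IgG2b, IgG2c and IgG3 cells together, and of IGHM cells, by library. Points are libraries (4 DTX1_KO, 4 WT), bars are the mean and SD of 4 libraries; the left and middle panels give the percent of mutated nucleotides in IGHV and light V genes and the right panel the percent of cells with an unmutated IGHV gene. IgG1 cells lie near the other switched cells and far from IGHM cells, and DTX1_KO libraries lie below WT libraries in mutation frequency in each class.

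Light V genes showed the same order at a lower level. Their frequency was 0.423, 0.39, 0.396 and 0.401% in DTX1_KO libraries, against 0.742, 0.552, 0.601 and 0.711% in WT libraries, again without overlap (difference -0.249 percentage points, exact permutation p = 0.0286, adjusted p = 0.0743). IgG1 cells with an unmutated IGHV gene were 16.8, 15.6, 14.1 and 20.6% in DTX1_KO libraries, against 5.16, 10.1, 9.87 and 5.44% in WT libraries (difference 9.17 percentage points, same p and adjusted p). Among mutated IgG1 cells the mean number of IGHV mutations was 2.94 ± 0.156 in DTX1_KO and 4.06 ± 0.102 in WT libraries. The pools thus differed in both the unmutated share and the load of mutated cells. Cells with 6 or more mutations were 7.85% ± 0.574 of DTX1_KO and 22.3% ± 3.33 of WT IgG1 cells. The median was 2 mutations in DTX1_KO and 3 in WT, and the most mutated cell had 25 in DTX1_KO and 15 in WT.

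**Figure D2:**
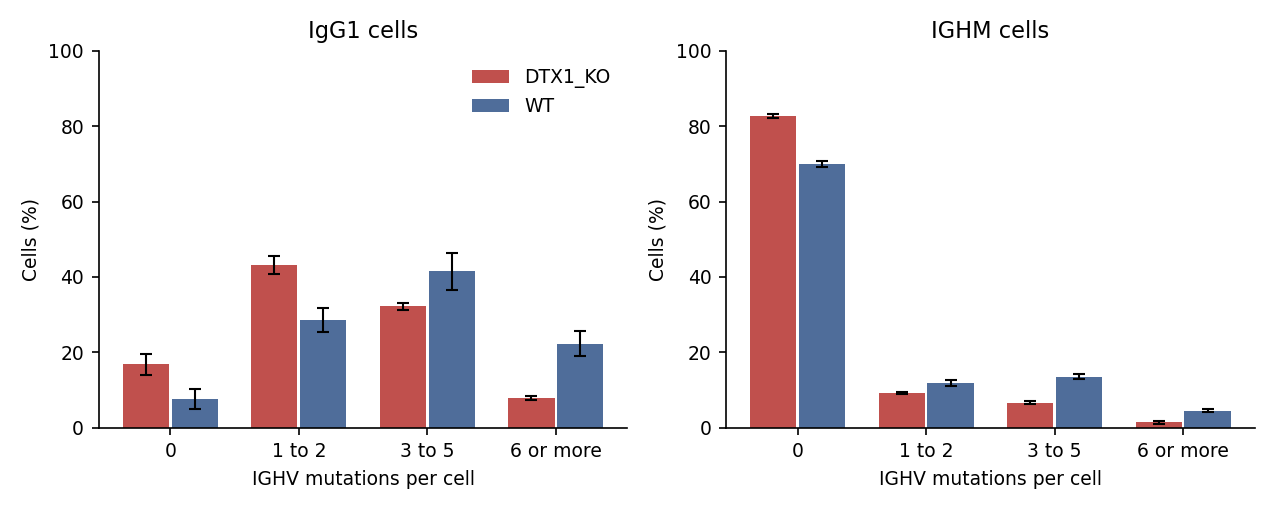
IGHV mutations per cell in IgG1 cells (left) and IGHM cells (right). Bars are the mean percent of cells over 4 libraries and error bars the SD; DTX1_KO stands left of WT. In IgG1 cells 16.8% (DTX1_KO) and 7.63% (WT) were unmutated, against 82.6% and 69.97% of IGHM cells.

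Against IGHM cells of the same libraries the gap was wider than that between pools. The IGHV frequency of IgG1 cells exceeded that of IGHM cells by a mean of 0.817 percentage points over 8 libraries, in 8 of 8 (exact sign-flip permutation p = 0.0078, the smallest possible with 8 libraries, adjusted p = 0.0217). IGHM cells had 0.175% ± 0.0132 in DTX1_KO and 0.363% ± 0.0118 in WT. The light V frequency was higher by 0.398 percentage points and the unmutated share differed by -64.1 percentage points, both with the same p and adjusted p. Among mutated cells the number of IGHV mutations was closer between classes, at 2.94 ± 0.156 in IgG1 and 2.87 ± 0.134 in IGHM cells of DTX1_KO, and 4.06 ± 0.102 in IgG1 and 3.44 ± 0.0597 in IGHM cells of WT. The mean excess of 0.341 mutations, seen in 6 of 8 libraries, had exact sign-flip permutation p = 0.0469 and adjusted p = 0.107, which fails the correction, and the unadjusted p missed the threshold without any one of 6 of the 8 libraries. In percentage points the step to IgG1 was smaller in DTX1_KO than in WT. The difference of differences was -0.272 for the IGHV frequency and -0.163 for the light V frequency. Each has exact permutation p = 0.0286 and adjusted p = 0.0714. The light V step missed the threshold without any one of 4 of the 8 libraries. IGHM cells also had a lower frequency in DTX1_KO, so this order applies to percentage points only. The ratio of IgG1 to IGHM frequency was not tested. The unmutated share fell by more in DTX1_KO than in WT (-65.8 against -62.3 percentage points). That difference of -3.46 did not pass the test (exact permutation p = 0.143). Median heavy chain UMIs moved with these groups. They were 18.75 ± 1.5 in DTX1_KO and 14.0 ± 2.16 in WT IgG1 cells, and 41.5 ± 1.91 and 24.25 ± 1.89 in IGHM cells, in the same order of pools. With heavy contigs under 5 UMIs left out, the IGHV frequency kept its direction and p in both comparisons.

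The order of the pools held in most genes. Over all cells of a pool, the IGHV frequency of IgG1 cells was lower in DTX1_KO in 9 of the 10 IGHV genes most used by IgG1 cells, and above that of IGHM cells of the same pool in 10 of 10. IGHV1-9 had 1.02% in 95 DTX1_KO cells and 1.55% in 62 WT cells. IGHV1-81 had 0.928% in 59 DTX1_KO cells and 1.51% in 57 WT cells. The exception was IGHV8-8, with 0.902% in 57 DTX1_KO cells and 0.819% in 25 WT cells, and in IGHV2-2 the pools were nearly equal (0.99% in 58 DTX1_KO cells, 0.993% in 15 WT cells). These are values per gene with no test.

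Cells of one clone allow a comparison on the same rearrangement. In clones that held both classes in a library (18 to 41 clones per library), IgG1 cells exceeded their IGHM sister cells in IGHV frequency in 8 of 8 libraries, by a mean of 0.432 percentage points (exact sign-flip permutation p = 0.0078). The excess was 0.362, 0.286, 0.228 and 0.417 percentage points in DTX1_KO libraries, against 0.437, 0.43, 0.563 and 0.735 in WT libraries. The groups do not overlap but lie close, with 0.417 and 0.43 as nearest values (difference -0.218, exact permutation p = 0.0286). This difference between pools was lost without any one of 6 of the 8 libraries, the 4 DTX1_KO libraries and WT replicates 3 and 4, where p ran up to 0.114, and turned to 0.0974 when a clone needed an identical heavy CDR3. With that rule the excess over IGHM sisters was 0.17 percentage points and missed the threshold (exact permutation p = 0.0781).

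Compared with the most similar cells of the series, those switched to IGHG2B, IGHG2C or IGHG3 (1057 cells), IgG1 cells did not pass the test in mutation. The IGHV frequency of IgG1 cells minus that of these cells was -0.0551 percentage points (exact permutation p = 0.117), and the unmutated share differed by 2.63 percentage points (p = 0.0859). The heavy CDR3 of IgG1 cells differed by -0.263 residues (exact permutation p = 0.0234, adjusted p = 0.0703 over 3 values), which fails the correction. Without WT replicate 4 the mutation difference was -0.0775 (exact permutation p = 0.03125).

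The kind of mutation was examined next. AID acts on C, mostly in WRC motifs (GYW on the other strand), while mutations at A and T come from error-prone repair of its lesions. In IgG1 cells 73.8% ± 2.58 of C and G mutations lay in these motifs in DTX1_KO and 70.2% ± 0.983 in WT, where 28.4% of germline C and G bases do in each pool (exact permutation p = 0.0857 for the difference). Mutations at A and T made up 42.1, 43.3, 42.2 and 43.8% in DTX1_KO libraries and 45.03, 44.5, 49.5 and 44.3% in WT libraries, without overlap, although WT replicate 3 stands apart (difference -2.99 percentage points, exact permutation p = 0.0286, adjusted p = 0.0743). The A and T difference was -1.79 without WT replicate 3 and -3.31 to -2.74 without any one DTX1_KO library, and missed the threshold in these 5 cases (exact permutation p = 0.0571 to 0.0857). Against IGHM cells, the A and T share of IgG1 cells was 3.59 percentage points higher and the share of amino acid replacing mutations 2.70 points higher (exact permutation p = 0.0078 and adjusted p = 0.0217 each). The replacement share of IgG1 cells was 75.3% ± 2.21 in DTX1_KO and 76.9% ± 2.16 in WT. Mutations per base were 2.5 ± 0.15 times as frequent in CDRs as in frameworks in DTX1_KO IgG1 cells and 2.56 ± 0.0391 times in WT IgG1 cells. Neither of these last 2 values passed the test between pools (exact permutation p = 0.343 and 0.486).

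Replacements gathered in a few codons. The 5 replaced codons found in most IgG1 clones, with a tie for the fifth, lay in IGHV1-9 and IGHV1-81, the 2 IGHV genes that IgG1 cells used most. Codons are counted from 1 at the start of framework 1. The germline stretches that hold them are shown from the files' contigs, 5′ to 3′ on the coding strand, with the recurrently replaced codons in capitals, to show where the changes fall.
IGHV1-9, codons 49 to 65: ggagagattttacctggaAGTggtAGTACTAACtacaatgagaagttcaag
IGHV1-81, codons 25 to 41: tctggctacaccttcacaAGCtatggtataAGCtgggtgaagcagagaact

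IGHV1-9 lies on chromosome 12 at 114583569 to 114583862 and IGHV1-81 at 115920279 to 115920572 (mm10). The capitals of IGHV1-9 fall in CDR2 (codons 55 and 57) and the framework 3 bases that follow it (codons 58 and 59). Those of IGHV1-81 fall in CDR1 (codon 31) and at the start of framework 2 (codon 35). In IGHV1-9, codon 55 was replaced in 32 of 87 mutated IgG1 clones, most often as S55R (18 clones). Of these, 10 were among 48 mutated DTX1_KO clones and 22 among 39 mutated WT clones. Codon 57 was replaced in 24 of the 87 (S57R in 14), codon 59 in 24 (N59K in 14) and codon 58 in 20 (T58S in 7). In IGHV1-81, codon 31 was replaced in 23 of 89 mutated IgG1 clones (S31N in 17), 8 of 43 in DTX1_KO and 15 of 46 in WT. Codon 35 was replaced in 20 of the 89 (S35N in 10), 4 of 43 in DTX1_KO and 16 of 46 in WT. In IGHM clones all of the codons named above were replaced at like shares. Codon 55 of IGHV1-9 was replaced in 32.9% of 401 mutated IGHM clones and 36.8% of mutated IgG1 clones. Codon 57 was replaced in 31.4% of IGHM and 27.6% of IgG1 clones, codon 58 in 19.95% and 22.99%, and codon 59 in 25.4% and 27.6%. Codon 31 of IGHV1-81 was replaced in 32.6% of 383 mutated IGHM clones and 25.8% of mutated IgG1 clones. For codon 35 the shares were 25.6% of IGHM and 22.5% of IgG1 clones. A ranking by number of clones favours the most used genes. By share of mutated clones, IGHV1-42 codon 54 in CDR2, chosen after its values were seen, stood higher. It was replaced in 17 of 25 mutated IgG1 clones (68.0%; S54R in 8), 7 of 13 in DTX1_KO and 10 of 12 in WT, and in 39.8% of 123 mutated IGHM clones. These shares carry no test, and a clone counts as replaced if any of its cells is. The splits by pool were not adjusted for the number of IGHV mutations, which was higher in mutated WT than in mutated DTX1_KO IgG1 cells.

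Heavy chain V genes of IgG1 cells were compared next. IGHV1-9, the gene used most, made up 9.05% of IgG1 cells (mean of 8 libraries) and 5.92% of IGHM cells, and was followed by IGHV1-81 (7.07%), IGHV9-3, IGHV1-55, IGHV8-8, IGHV1-64, IGHV2-2, IGHV1-26, IGHV1-80 and IGHV1-42 (2.36%). The IGHV1 family, the largest of the mouse, held 71.4% ± 1.9 of DTX1_KO and 68.3% ± 2.85 of WT IgG1 cells. Counts of cells per gene were tested with edgeR's quasi-likelihood test on the 29 IGHV genes with at least 20 IgG1 cells, with Benjamini-Hochberg adjustment over the genes tested.

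Between pools 1 IGHV gene was higher in DTX1_KO IgG1 cells (3.45% of the genes tested) and 2 were lower (6.9%). IGHV1-80 was 4.84, 3.85, 3.93 and 3.2% of IgG1 cells in DTX1_KO libraries, against 0.637, 1.23, 0 and 1.31% in WT libraries. Its log2 fold change was 2.25 (SE 0.592, edgeR adjusted p = 0.00593), from 27 DTX1_KO clones and 2 WT clones, and it was called under each of 15 alternatives. It held 46 DTX1_KO and 5 WT IgG1 cells. It thus passed the filter only through the pool where it is high, and its p-value comes after that choice. IGHM cells had the same order (2.00% ± 0.368 in DTX1_KO, 0.926% ± 0.0653 in WT), and the difference of the IgG1 to IGHM step was not called (edgeR adjusted p = 0.245). IGHV1-18 was 0.893% ± 0.534 in DTX1_KO and 3.18% ± 1.35 in WT IgG1 cells (a log2 fold change of -1.81, SE 0.529, with edgeR adjusted p = 0.00802). In IGHM cells IGHV1-18 was 2.17% ± 0.107 in DTX1_KO and 1.97% ± 0.176 in WT. IGHV2-5 was 0.618% ± 0.204 in DTX1_KO and 2.55% ± 0.477 in WT IgG1 cells (a log2 fold change of -1.97, SE 0.567, with edgeR adjusted p = 0.00802), beside 2.26% ± 0.31 and 4.48% ± 0.287 in IGHM cells. Without DTX1_KO replicate 2, and without WT replicate 2, only IGHV1-80 was called in this comparison, and in the second case IGHV2-5 did not reach the filter and was not tested. With TMM factors or with each clone counted once, edgeR called 1 higher and 4 lower of 29 genes. With no filter on low counts it called 1 higher and 4 lower of 81 genes. With any number of light chains (30 genes), or without DTX1_KO replicate 1 (26 genes), it called 5 higher and 3 lower. IGHV1-18 was also not called without WT replicate 4, and over its alternatives its log2 fold change was -2.17 to -1.56.

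**Figure D3:**
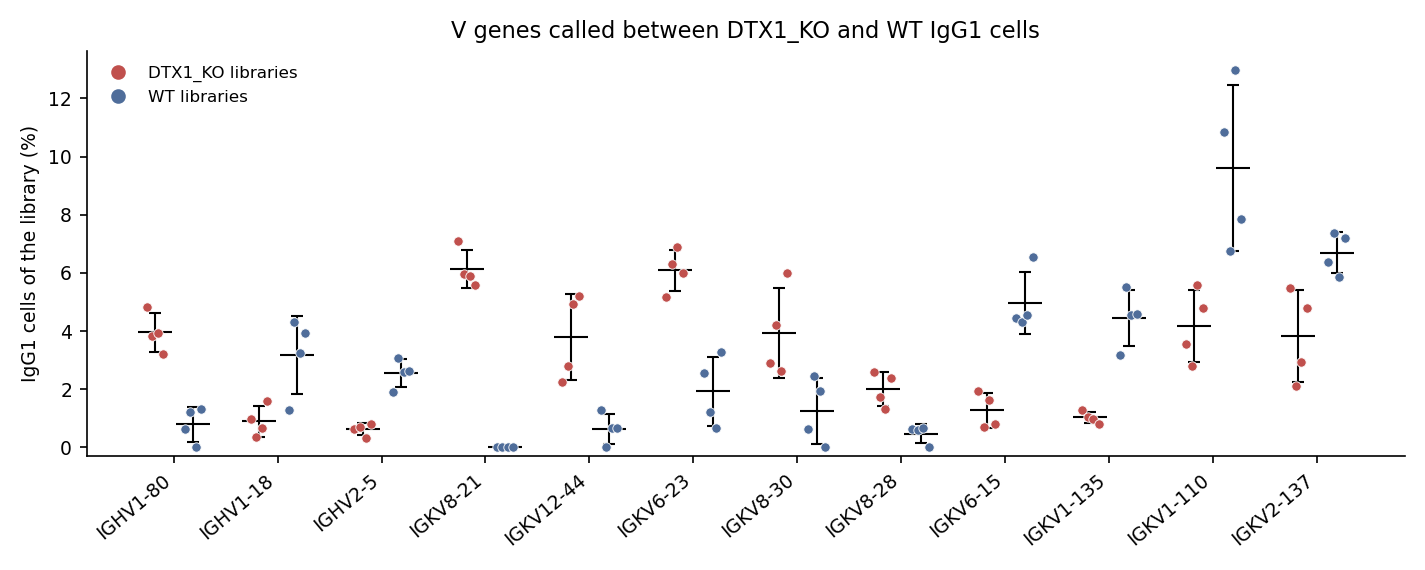
V genes called between DTX1_KO and WT IgG1 cells, as percent of the IgG1 cells of a library. Points are libraries, bars the mean and SD of 4 libraries, DTX1_KO left of WT for each gene. IGKV8-21 lies at 5.6 to 7.1% in the DTX1_KO libraries and at 0 in the 4 WT libraries.

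Against IGHM cells of the same libraries, 6 IGHV genes were used more by IgG1 cells (20.7% of the genes tested) and 3 less (10.3%). The filter counts IgG1 cells only, so genes rare in IgG1 cells were not tested; with no filter on low counts edgeR called 5 higher and 6 lower of 81 genes. IGHV1-9 rose in IgG1 cells (log2 fold change 0.65, SE 0.149, edgeR adjusted p = 0.000207). It was 8.15% ± 2.16 of IgG1 against 4.43% ± 0.411 of IGHM cells in DTX1_KO, and 9.95% ± 3.06 against 7.42% ± 0.377 in WT. IGHV2-5 (log2 fold change -1.34, SE 0.289, edgeR adjusted p = 0.000197) and IGHV8-12 (log2 fold change -1.22, SE 0.28, edgeR adjusted p = 0.000207) fell. These 3 genes were called under every alternative that tested them. Taken pool by pool, all 3 were called in DTX1_KO alone. None was called in WT alone, with the same directions (edgeR adjusted p = 0.187 for IGHV1-9, 0.125 for IGHV2-5 and 0.125 for IGHV8-12). The differences of their steps between pools were not called either (edgeR adjusted p = 0.264, 0.264 and 0.672). Of the IGHV genes only IGHV1-55, which fell, was called in WT alone. IGHV1-12, IGHV1-76, IGHV2-2, IGHV1-64 and IGHV1-66 also rose, by 0.50 to 1.27 on the log2 scale. They are less secure: with each clone counted once, none of the 5 was called. For IGHV1-12, 15 of its 28 DTX1_KO IgG1 cells belong to 1 clone, and its log2 fold change was then 0.41. IGHV1-72, the gene known from responses to the hapten nitrophenyl in C57BL/6 mice, fell (log2 fold change -0.88, SE 0.299, edgeR adjusted p = 0.0164). It was 2.31% ± 1.05 of DTX1_KO and 0.952% ± 0.636 of WT IgG1 cells, beside 3.8% ± 0.2 of DTX1_KO and 1.99% ± 0.119 of WT IGHM cells, and the call was lost under 6 alternatives, the one with each clone counted once among them.

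In 2 IGHV genes the step from IGHM to IgG1 differed between pools. IGHV1-55 was 5.9% ± 1.5 of IgG1 and 3.51% ± 0.268 of IGHM cells in DTX1_KO, against 3.01% ± 1.16 and 6.73% ± 0.312 in WT, so it went opposite ways (log2 difference 1.88, SE 0.387, edgeR adjusted p = 8.02e-05; 3.45% of the genes tested were higher). IGHV1-18 lay lower in IgG1 than in IGHM cells in DTX1_KO and higher in WT (log2 difference -2.01, SE 0.561, edgeR adjusted p = 0.00626; 3.45% lower). With each clone counted once neither was called. The adjusted p of IGHV1-55 was then 0.0545, and its largest DTX1_KO IgG1 clone held 11 of 67 cells.

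After adjustment edgeR called 9 of 30 light V genes between pools, against 3 of 29 IGHV genes. At an unadjusted edgeR p under 0.05 the numbers were close, at 13 light V and 12 IGHV genes. Without DTX1_KO replicate 1 edgeR called 8 of 21 light V and 8 of 26 IGHV genes. IgG1 cells used IGKV1-117, IGKV14-111, IGKV1-110, IGKV2-137, IGKV6-23 and IGKV10-96 most, from 8.84% to 3.91% as means of 8 libraries. Of 30 light V genes tested, 5 were higher in DTX1_KO IgG1 cells (16.7%) and 4 were lower (13.3%). The filter counts IgG1 cells of both pools, and 1151 of 1778 were DTX1_KO. It thus admits genes high in DTX1_KO more readily, for IGHV genes too. All 5 light V genes called higher held enough DTX1_KO cells to pass it, IGKV8-21 and IGKV8-28 among them. None of these 5 held enough WT cells to pass on those alone. They thus passed only through the pool where they are high. Some of the 4 called lower passed only through WT cells in the same way. The p-values of such genes come after that choice. With no filter on low counts edgeR called 4 higher and 3 lower of 78 light V genes. IGKV8-21, on chromosome 6 at 70314895 to 70315452, was used by 7.1, 5.94, 5.9 and 5.6% of IgG1 cells in DTX1_KO libraries (71 cells in 26 clones) and by 0 of 627 WT IgG1 cells. Against the floor of 3 cells over the WT pool (0.478%) the mean of DTX1_KO libraries was at least 12.8-fold higher (edgeR adjusted p = 4.73e-13). Its IGHM share was 0.873% ± 0.202 in DTX1_KO and 0.285% ± 0.0877 in WT. IGHV1-9 was the heavy chain partner in 28 of the 71 cells (5 clones), IGHV1-55 in 19 (5 clones) and IGHV1-53 in 9 (3 clones).

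Other IGKV8 genes were also higher in DTX1_KO IgG1 cells: IGKV8-30 (3.93% ± 1.54, against 1.26% ± 1.14 in WT; edgeR adjusted p = 0.00572) and IGKV8-28 (2.01% ± 0.587, against 0.475% ± 0.317; edgeR adjusted p = 0.0479). IGKV8-28 was not called in 7 of 13 alternatives (DESeq2, each clone counted once, no filter, the replicate block, and without DTX1_KO replicate 2, DTX1_KO replicate 4 or WT replicate 4; adjusted p up to 0.425), and 15 of its 23 DTX1_KO cells are 1 clone. IGKV8-30 was not called by DESeq2 or without WT replicate 4 (adjusted p up to 0.0966 over its alternatives). IGKV12-44 was 3.79% ± 1.48 in DTX1_KO and 0.644% ± 0.52 in WT IgG1 cells (a log2 fold change of 2.45, SE 0.541, with edgeR adjusted p = 0.000136). IGKV6-23 was 6.09% ± 0.717 in DTX1_KO and 1.92% ± 1.2 in WT IgG1 cells (a log2 fold change of 1.64, SE 0.389, with edgeR adjusted p = 0.00024). Lower in DTX1_KO were IGKV6-15 (1.27% ± 0.613, against 4.96% ± 1.06 in WT), IGKV1-135 (1.03% ± 0.203, against 4.46% ± 0.962) and IGKV1-110 (4.18% ± 1.24, against 9.60% ± 2.84), with edgeR adjusted p = 0.000105, 0.000105 and 0.00253. IGKV2-137 was 3.83% ± 1.58 in DTX1_KO and 6.69% ± 0.712 in WT, and its call (edgeR adjusted p = 0.0479) was lost in 10 of 14 alternatives. IGKV8-21, IGKV12-44, IGKV6-23, IGKV6-15, IGKV1-135 and IGKV1-110 were called in all 14.

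**Figure D4:**
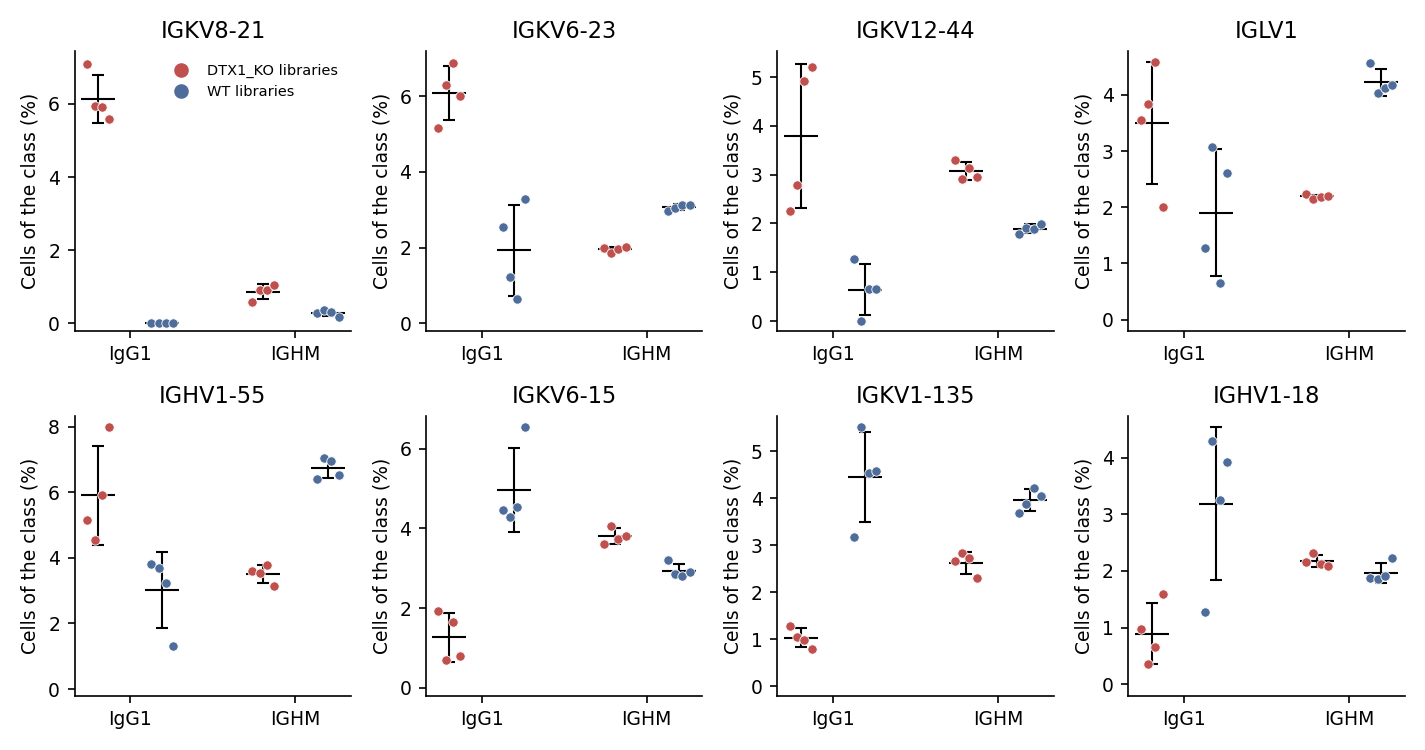
The 8 V genes whose step from IGHM to IgG1 cells differed between pools. The vertical axis is the percent of cells of the class in a library, points are libraries and bars the mean and SD of 4 libraries, with IgG1 left of IGHM and DTX1_KO left of WT. IGKV6-23 lies higher in IgG1 than in IGHM cells in DTX1_KO and lower in WT; IGKV6-15 shows the opposite order.

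Against IGHM cells 3 light V genes rose in IgG1 cells (10.0% of the genes tested) and 0 fell by edgeR (0.0%). Of the 30 genes 5 had an unadjusted edgeR p under 0.05 in either direction, and DESeq2 called 3, all higher. With no filter on low counts edgeR called 3 higher and 4 lower of 78 genes. IGKV14-111 was 5.91% ± 1.39 of IgG1 against 3.23% ± 0.24 of IGHM cells in DTX1_KO, and 9.61% ± 4.07 against 3.37% ± 0.2 in WT (a log2 fold change of 1.18, SE 0.158, with edgeR adjusted p = 1.13e-10). IGKV1-117 rose by 0.81 (SE 0.168, edgeR adjusted p = 5.26e-05) and IGKV1-110 by 0.64 (SE 0.172, edgeR adjusted p = 0.00265) on the log2 scale. The step from IGHM to IgG1 differed between pools for 6 light V genes, with DTX1_KO higher in 4 (13.3%) and lower in 2 (6.67%). IGKV6-23 was 1.95% ± 0.0719 of IGHM cells in DTX1_KO and 3.06% ± 0.0739 in WT, so its IgG1 share lay above IGHM in DTX1_KO and below it in WT (log2 difference 2.31, SE 0.404, edgeR adjusted p = 1.27e-06). IGKV6-15 went the other way (3.8% ± 0.196 and 2.94% ± 0.176 of IGHM cells; log2 difference -2.29, SE 0.443, edgeR adjusted p = 8.96e-06). IGKV8-21, IGKV12-44 and IGKV1-135 followed the direction of their IgG1 difference (edgeR adjusted p = 0.00035, 0.0226 and 0.0109). The step of IGKV12-44 was not called in 8 of 14 alternatives, DESeq2 and each clone counted once among them (adjusted p up to 0.118), and that of IGKV1-135 was not called by DESeq2 or without WT replicate 2 (adjusted p up to 0.0575).

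The sixth gene was IGLV1, the main lambda V gene. It was 3.5% ± 1.09 of IgG1 and 2.19% ± 0.0325 of IGHM cells in DTX1_KO, against 1.9% ± 1.13 and 4.22% ± 0.237 in WT (log2 difference 1.83, SE 0.442, edgeR adjusted p = 0.000387). IGLV2 held 1 DTX1_KO and 4 WT IgG1 cells and IGLV3 held 0 and 1, so neither was tested. All lambda chains together were 3.58% ± 1.2 of IgG1 cells in DTX1_KO and 2.70% ± 0.731 in WT (exact permutation p = 0.286), beside 3.06% ± 0.113 and 6.29% ± 0.21 of IGHM cells. The difference of differences was 4.11 percentage points (exact permutation p = 0.0286, adjusted p = 0.0714).

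None of the 4 IGHJ genes passed the test between pools with all libraries. IGHJ1 made up 14.3% ± 3.6 in DTX1_KO and 16.4% ± 1.37 in WT, IGHJ2 30.9% ± 2.67 and 29.1% ± 5.48, IGHJ3 27.1% ± 4.19 and 27.0% ± 2.47, and IGHJ4 27.7% ± 1.4 and 27.5% ± 4.76 (exact permutation p = 0.314 to 0.943). The IGHJ1 difference of -2.11 percentage points ran from -3.40 to -0.509 over its alternatives, and at -3.40, without DTX1_KO replicate 2, the libraries did not overlap (exact permutation p = 0.0286). A D gene was called in 16.6 to 24.8% of the IgG1 cells of a library, so D use rests on few cells. IGHD2-6 was called in 2, 1, 2 and 1 IgG1 cells in DTX1_KO libraries, against 8, 3, 9 and 9 in WT libraries, or 2.35% ± 0.827 and 23.0% ± 8.07 of cells with a D call. IGHD3-2 was called in 18, 11, 12 and 7 cells in DTX1_KO libraries, against 0, 2, 1 and 1 in WT libraries, or 18.4% ± 4.42 and 3.35% ± 3.06. Both have exact permutation p = 0.0286 and adjusted p = 0.0743, and the counts do not overlap. The 6 IGHD genes tested were those most used by these same IgG1 cells. IGHD2-6 entered that list through its WT share and IGHD3-2 through its DTX1_KO share, so their p-values come after that choice. IGHD2-8, called in 18 DTX1_KO and 14 WT cells, was not tested. The IGHD2-6 difference of -20.6 percentage points was -21.0 to -20.3 without any one DTX1_KO library, each with exact permutation p = 0.0571. In IGHM cells the pools were close in both genes, at 8.31% ± 1.25 and 9.74% ± 1.01 for IGHD2-6 and 8.00% ± 0.67 and 7.98% ± 0.688 for IGHD3-2. The 48 IGHD3-2 cells of DTX1_KO fall in 20 clones and the 29 IGHD2-6 cells of WT in 25. IGHD1-1, IGHD2-3, IGHD2-4 and IGHD4-1 did not pass the test between pools (exact permutation p = 0.343 to 0.857). IGHD1-1 was 26.0% ± 6.73 of IgG1 and 37.1% ± 1.96 of IGHM cells with a D call over 8 libraries (exact sign-flip permutation p = 0.0156, adjusted p = 0.0391).

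The heavy CDR3, the loop made by the V, D and J join, was 14.2 ± 0.0622 residues long in DTX1_KO and 14.4 ± 0.28 in WT IgG1 cells (exact permutation p = 0.229), and 14.4 ± 0.0906 in IGHM cells over 8 libraries. Its mean net charge was -0.035, -0.017, -0.036 and -0.064 in DTX1_KO libraries, against 0.045, 0.11, 0.266 and 0.013 in WT libraries, negative in all 4 DTX1_KO and positive in all 4 WT libraries (difference -0.147, exact permutation p = 0.0286, adjusted p = 0.0743). The charge difference missed the threshold without any one DTX1_KO library (-0.154 to -0.138, exact permutation p = 0.0571 to 0.0857). IGHM cells were at -0.113 ± 0.0282 in DTX1_KO and -0.0244 ± 0.0249 in WT, so IgG1 cells were more positive in both (mean of 8 libraries 0.104 higher, exact sign-flip permutation p = 0.0078, adjusted p = 0.0217). Mean hydropathy was -0.449 ± 0.00837 in DTX1_KO and -0.502 ± 0.0138 in WT IgG1 cells (exact permutation p = 0.0286, adjusted p = 0.0743).

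Pairing of heavy and light V genes was broad. IgG1 cells held 720 pairs, 519 of them in 1 clone, and 108 were found in both pools (of 517 in DTX1_KO and 311 in WT). IGHV1-9 with IGKV1-117 recurred in most clones, in 10 DTX1_KO and 15 WT clones. It made up 1.22% of DTX1_KO and 4.63% of WT IgG1 cells, beside 0.472% and 1.73% of IGHM cells. IGHV1-62-2 with IGKV2-137 was in 7 DTX1_KO and 10 WT clones, IGHV1-71 with IGKV2-137 in 5 and 10, IGHV1-9 with IGKV1-110 in 7 and 8, and IGHV1-59 with IGKV8-27 in 10 and 4. All 5 pairs occurred in both pools, but they were ranked by clones over both pools, which favours shared pairs. Some pairs next in rank were found in DTX1_KO IgG1 cells only. IGHV1-26 with IGKV1-117, chosen after its values were seen, had 28 cells in 10 DTX1_KO clones and 0 WT IgG1 cells. These counts carry no test.

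Clones of IgG1 cells were small and spread over libraries. Cells were put in 1 clone when the V and J genes of both chains and the heavy CDR3 length were the same and at least 0.85 of the heavy CDR3 nucleotides matched. The 1151 DTX1_KO cells formed 767 clones and the 627 WT cells formed 472. In DTX1_KO 585 clones had 1 IgG1 cell, 182 had 2 or more and 26 had 5 or more. In WT 379 had 1, 93 had 2 or more and 5 had 5 or more; the pools differ in cells sampled, so these counts are not compared. Thinned to 153 IgG1 cells per library, cells in clones of 2 or more were 16.9% ± 1.31 in DTX1_KO and 20.1% ± 4.65 in WT (exact permutation p = 0.314). In IGHM cells thinned alike they were 5.72% ± 0.148 in DTX1_KO and 11.7% ± 0.72 in WT. IgG1 cells exceeded IGHM cells by 9.78 percentage points, in 8 of 8 libraries (exact sign-flip permutation p = 0.0078, adjusted p = 0.0217). With clones of identical heavy CDR3 the excess was 1.41 points and missed the threshold (exact permutation p = 0.0547).

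Most IgG1 clones held no other class among the cells sampled. However, 585 of 767 DTX1_KO and 379 of 472 WT clones had only 1 IgG1 cell, which limits the chance to find sister cells. Of clones with 2 or more IgG1 cells, 77 of 182 in DTX1_KO and 44 of 93 in WT held IGHM cells. IGHM cells were found in 25.9% of DTX1_KO and 28.2% of WT IgG1 clones, and those clones held 34.6% ± 2.25 of DTX1_KO and 34.8% ± 9.28 of WT IgG1 cells (exact permutation p = 1.0). Cells of IGHG2B, IGHG2C or IGHG3 were found in 26 of 767 DTX1_KO clones (3.39%) and 69 of 472 WT clones (14.6%). The pools held 306 such cells in DTX1_KO and 751 in WT, so these counts are given with no test.

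**Figure D5:**
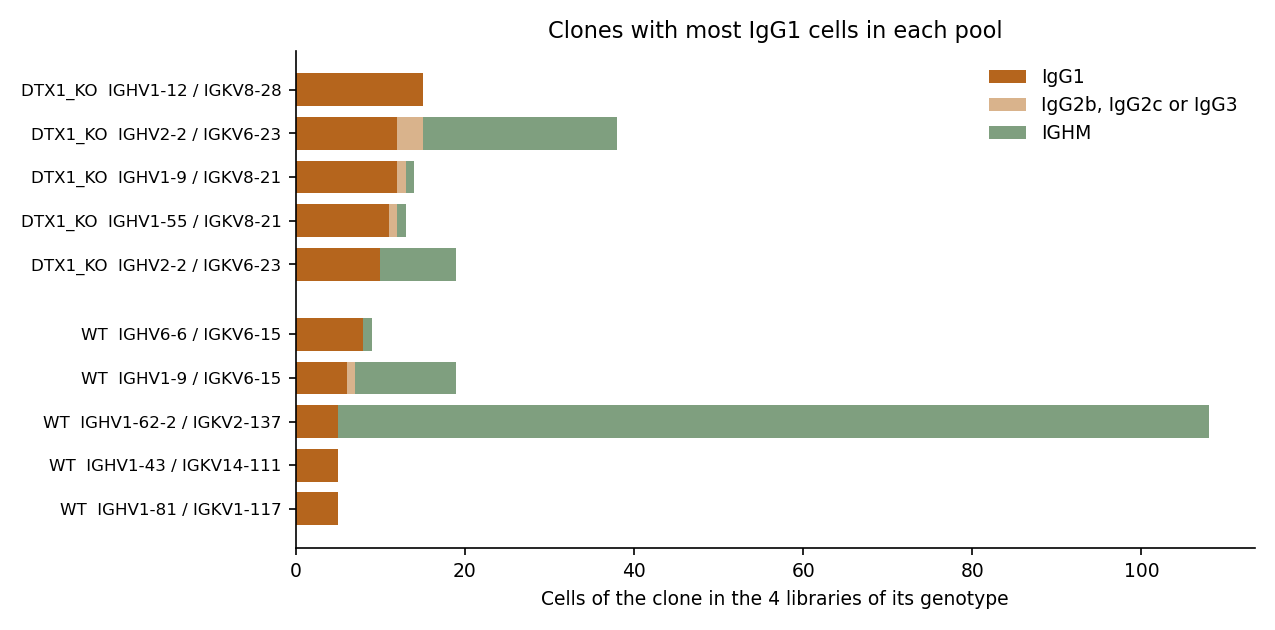
Class makeup of the 5 clones with most IgG1 cells in each pool, DTX1_KO above WT. Bars are stacked numbers of IgG1, other switched and IGHM cells over the 4 libraries of the genotype. The largest DTX1_KO clone holds 15 IgG1 cells and no other class, whereas 1 WT clone holds 5 IgG1 and 103 IGHM cells.

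The heavy CDR3 sequences of the clones with most IgG1 cells are shown because they identify each clone and show which bases vary among its IgG1 cells. Each is the most common one among the clone's IgG1 cells, from the conserved cysteine codon to the tryptophan codon, 5′ to 3′, with bases that vary among those cells in capitals. Ties in size were broken by all cells of the clone.
DTX1_KO clone 1, IGHV1-12 with IGKV8-28: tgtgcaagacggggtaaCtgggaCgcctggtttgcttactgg
DTX1_KO clone 2, IGHV2-2 with IGKV6-23 and IGKJ5: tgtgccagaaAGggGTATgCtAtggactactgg
DTX1_KO clone 3, IGHV1-9 with IGKV8-21: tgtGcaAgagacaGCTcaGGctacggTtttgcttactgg
DTX1_KO clone 4, IGHV1-55 with IGKV8-21: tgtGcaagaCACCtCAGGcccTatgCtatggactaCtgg
DTX1_KO clone 5, IGHV2-2 with IGKV6-23 and IGKJ2: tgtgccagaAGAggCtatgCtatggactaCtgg
WT clone 1, IGHV6-6 with IGKV6-15: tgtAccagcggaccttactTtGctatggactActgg
WT clone 2, IGHV1-9 with IGKV6-15: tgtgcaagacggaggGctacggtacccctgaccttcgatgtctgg
WT clone 3, IGHV1-62-2 with IGKV2-137: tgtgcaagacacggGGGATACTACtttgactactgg
WT clone 4, IGHV1-43 with IGKV14-111: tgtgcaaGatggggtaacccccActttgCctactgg
WT clone 5, IGHV1-81 with IGKV1-117: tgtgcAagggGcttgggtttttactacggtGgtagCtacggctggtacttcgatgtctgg

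DTX1_KO clone 1 had 6, 5, 2 and 2 IgG1 cells in the 4 libraries and no cell of another class. Its IgG1 cells carried 1.13 IGHV mutations on average, 6 of 15 were unmutated, and 13 had the CDR3 shown. DTX1_KO clones 2 and 5 differ in the light J gene and have nearly the same short heavy CDR3 of 11 residues, so separate rearrangements may be joined within each. Clone 2 held 12 IgG1 cells with 2.42 mutations on average, beside 23 IGHM cells with 0.348, of which 20 were unmutated. Clone 5 held 10 IgG1 cells with 3.1 mutations on average and 9 IGHM cells with 1.22. Clones 3 and 4, both with IGKV8-21, held 12 and 11 IgG1 cells and 1 IGHM cell each, with 3.08 and 2.27 mutations per IgG1 cell. Among these IgG1 cells 8 CDR3 bases varied in clone 3 and 12 in clone 4, so separate rearrangements may be joined there too.

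WT clone 1 held 8 IgG1 cells with 3.13 mutations on average, 0, 1, 4 and 3 by library, and 1 IGHM cell. WT clone 2 held 6 IgG1 cells with 2.83 mutations and 12 IGHM cells with 2.42. WT clone 3 held 5 IgG1 cells with 3.0 mutations beside 103 IGHM cells with 0.553, of which 86 were unmutated; 10 of the bases in its CDR3 varied among 5 IgG1 cells, so it too may join separate rearrangements. WT clones 4 and 5 held 5 IgG1 cells each and no other class. IGHV1-43 had too few clones for a germline, so clone 4 has no mutation value, and clone 5 had 3.6 mutations on average.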

How the data were processed

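Receptor contigs of 8 single-cell libraries were deposited by the authors as filtered contig annotations, with whole-number counts of reads and UMIs per contig, per the file headers. Cell Ranger (version not given in the sources used here), R 4.3.1 and the mm10 build are named in the submitters' processing notes. All 216 gene names matched RefSeq (GRCm38.p6). Barcodes with exactly 1 heavy and 1 light chain contig were kept. Those with several were left out, which removes some doublets, and no doublet caller was run.

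Germlines were the most common sequence over clones of genes with at least 20 clones (77 of 97 IGHV genes, the same in both pools for all 77), which covered 96.1 to 99.7% of the IgG1 cells of a library. A change carried by most clones of a gene would thus count as germline. V gene counts, in cells per gene and library, were tested with edgeR 4.0.16 (R 4.3.3) on genes with at least 20 IgG1 cells, with the cells of the column as library size. The SE printed with a log2 fold change is its absolute value divided by the square root of the F statistic of that test, not an output of edgeR. DESeq2 1.42.0 was an alternative. IgG1 and IGHM counts were fitted with library as a block. Single values were tested by exact permutation over libraries, called at an unadjusted p under 0.05, with Benjamini-Hochberg values per family. Clone measures were thinned to 153 cells per library over 100 draws. The edgeR step was tested on simulated data. Python 3.11.15, pandas 2.3.3, NumPy 2.4.6 and SciPy 1.17.1 were used.

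The members, gene groups and tests were chosen with earlier results of these data known. Named were the 10 IGHV and 6 light V genes most used by IgG1 cells, the genes called in each edgeR comparison, all IGHJ genes, the 6 most used IGHD genes, IGHV1-72, IGHV11-2, IGHV12-3, IGLV1, IGLV2 and IGLV3, the 5 pairs in most clones, the 5 largest clones of each pool and the 5 codons replaced in most clones. Alternatives covered TMM factors, no filter, DESeq2, clones counted once, other clone and germline limits, at least 5 UMIs, any number of light chains, a replicate block and each library left out.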

Additional observations from a re-analysis of the deposited data

Results flagged for a closer look

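Of 99 groups of 4 libraries, 11 held a library far from the other 3 by Dixon's 95% criterion. Chance gives about 5% of groups. In DTX1_KO IgG1 cells these were the replacement share of mutations in replicate 4 (78.6%), median heavy UMIs in replicate 3 (21), and the shares of IGHV1-72 in replicate 1 (3.87%), IGHV8-12 in replicate 3 (2.30%) and IGKV14-111 in replicate 2 (3.85%). In WT IgG1 cells they were the A and T share of mutations in replicate 3 (49.5%), IGHJ1 in replicate 1 (18.5%), IGHV1-72 in replicate 3 (0%), IGKV1-117 in replicate 3 (17.5%), IGKV6-15 in replicate 4 (6.54%) and IGKV8-28 in replicate 4 (0%). Replicate 3 of WT accounts for 3 of the 11.

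In 19 results the step from IGHM to IgG1 cells differed between DTX1_KO and WT by a test of the difference. All values here are the DTX1_KO step minus the WT step. For mutation they were -0.272 percentage points in IGHV frequency, -0.163 in light V frequency, -0.553 mutations per mutated cell, -2.95 percentage points in the A and T share, and -0.218 percentage points between sister cells of a clone. For receptor features they were 0.0578 in CDR3 hydropathy, and in percentage points 4.11 for lambda chains, -4.88 for IGHJ1, -19.2 for IGHD2-6 and 15.03 for IGHD3-2. Median heavy UMIs differed by -12.5. Each of these has exact permutation p = 0.0286, and the 10 tested as a family have an adjusted p of 0.0714, so they fail the correction. The IGHJ1 step missed the threshold in 6 of 11 alternatives, namely with each clone counted once, with the replicate block and without any one WT library (-6.09 to -1.14, exact permutation p up to 0.543). The IGHD2-6 step missed it in 5 of 11, with the replicate block and without any one DTX1_KO library (-23.4 to -16.8, exact permutation p up to 0.125). The step in mutations per mutated cell missed it without any one WT library, and ran from -0.641 to -0.47 over the 8 libraries left out in turn. In the same way the light V frequency step missed it in 4 of 8 cases (-0.199 to -0.133). The A and T step missed it in 3 of 8 (-3.42 to -1.81) and the lambda step in 1 of 8 (3.62 to 4.67). On the log2 scale the V genes were IGKV6-23 (2.31), IGHV1-55 (1.88), IGLV1 (1.83), IGKV12-44 (1.84), IGKV6-15 (-2.29), IGHV1-18 (-2.01) and IGKV1-135 (-1.51) by edgeR. IGKV8-21 had a fitted 8.67, which depends on the prior count because no WT IgG1 cell carried it and is not a bound.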

How the results depend on the processing

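Of 206 values of the comparisons under alternatives, 176 kept their direction and side of the threshold or stayed within 1.5 times the count. The same-numbered libraries of the genotypes did not deviate together (correlations over IGHV genes -0.443 to 0.084, over light V genes -0.241 to 0.129), so the numbers were not taken to pair them. With a replicate block the exact permutation test over 4 pairs cannot go below 0.125, and at that p the differences were -0.459 for IGHV mutation frequency, -0.272 for its step from IGHM, 9.17 for the unmutated share and -0.218 for sister cells. With the block edgeR called 3 of 29 IGHV and 7 of 30 light V genes between pools. Without the library block it called 9 of 29 IGHV and 3 of 30 light V genes against IGHM. With identical heavy CDR3s as the clone rule, the excess in expanded clones was 1.41 (p = 0.0547), that between sister cells 0.17 (p = 0.0781), and its difference between pools reversed to 0.0974 (p = 0.571), all by exact permutation test. With at least 5 UMIs that difference was -0.19 (exact permutation p = 0.143). With each library left out in turn it ran from -0.255 to -0.153, and the mutation difference from other switched cells from -0.0775 to -0.0413 (-0.0775 without WT replicate 4, exact permutation p = 0.03125). IGHV genes called between pools numbered 3 of 29 tested, against 5 of 29 with TMM factors and 5 of 29 with each clone counted once. They numbered 5 of 81 with no filter and 8 of 30 with any number of light chains. With a library left out, 25 to 27 genes were tested and 1 to 8 called (8 of 26 without DTX1_KO replicate 1, 1 of 26 without DTX1_KO or WT replicate 2). Against IGHM cells 9 of 29 IGHV genes were called, and 3 of 29 with each clone counted once. With a library left out, 2 to 8 of 25 to 27 were called (5 of 26, 3 of 26 and 2 of 25 without WT replicates 1, 2 and 4). The light V count against IGHM cells was 3 of 30, and 7 of 78 with no filter, so the share called did not rise. The IGHV step differed between pools for 2 genes, for 0 with each clone counted once by edgeR (6 at an unadjusted p under 0.05; 2 by DESeq2), and for 1 to 2 with a library left out. The causes were not tested. The few IgG1 cells per library limit rare genes and D use.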

Other observations

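A group of related heavy CDR3s was noticed after the values were seen. DTX1_KO IgG1 cells held 50 cells (4.34% of 1151) with a CDR3 of 13 residues that has a proline followed by tyrosine and then alanine or glycine before an IGHJ4 end, preceded by leucine or phenylalanine and by leucine or arginine. DTX1_KO clone 4 is an example. These cells were spread over the libraries as 12, 11, 15 and 12, came from 13 clones and 8 IGHV genes, and all 50 carried a light chain of the IGKV8 family. In DTX1_KO IGHM cells the pattern was found in 14 of 20342 (0.0688%), all with an IGKV8 chain. No WT cell had it, with 0 of 627 IgG1 and 0 of 17147 IGHM cells. The pattern was defined on these cells, so no test is given.

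In cells switched to IGHG2B, IGHG2C or IGHG3, IGHD3-2 made up 9.20% ± 4.06 of those with a D call in DTX1_KO and 1.30% ± 1.5 in WT libraries, and IGHD2-6 made up 13.3% ± 1.07 in DTX1_KO and 24.6% ± 11.9 in WT libraries (SD, n = 4 each). Both genes were chosen after their values were seen. IGHD4-1, IGHD1-1 and IGHD2-3 were lower on average in DTX1_KO than in WT in these cells and higher in IgG1 cells. These values were not tested.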
